A study of Mus musculus with 12 samples.

Results

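The genes described here are 9 factors that act on R-loops or in mRNA export: Thoc1, Thoc2, Thoc5, Thoc7, Alyref, Nxf1, Rnaseh1, Rnaseh2a and Top3b. They were chosen by gene symbol, 9 of the 32285 genes in the count table, and all 9 passed the filter on low counts that left 12765 genes for testing. Transcript levels were measured with bulk RNA libraries, 12 in all, from untreated mouse embryonic stem cells of the IB10 line, which comes from 129/Ola mice. The 4 genotypes, with 3 libraries each, were wild type, DHX36 KO and FANCJ KO (mouse gene symbol Brip1), here called the single knockouts, and the double knockout, which lacks both. The labels do not say how the knockouts were made, whether a genotype is 1 clone or several, or whether its libraries came from separate cultures. The p-values therefore reflect only the spread among these libraries, and that spread may be technical. In bulk RNA, fewer cells of a type and less RNA per cell cannot be told apart.

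An R-loop is a hybrid of RNA and DNA that forms when a transcript pairs with its template strand and leaves the other DNA strand single. A displaced strand rich in guanine can fold into a G-quadruplex, a structure of stacked guanines, and DHX36 and FANCJ are helicases that unwind G-quadruplexes. Cells limit R-loops in several ways. Packaging of the nascent transcript by the THO complex and by the export adaptor ALYREF keeps RNA away from its template and hands it to the export receptor NXF1. RNase H enzymes cut the RNA of a hybrid, and topoisomerases release the torsion that favours its formation. The study's title concerns the control of G-quadruplexes by RNA, and the comparisons ask how the transcripts of these factors differ when either helicase or both are lost.

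Libraries held 4284785 to 14721931 counts, and all 3 of the double knockout and all 3 of the DHX36 single knockout were deeper than any of wild type. Libraries of a genotype differed by more than the noise of independent counts, as chi-square divided by its degrees of freedom lay between 4.11 and 12.3. Whether counts are reads or molecules is not given, so part of this excess may be repeated reads of the same molecule. The excess does not tell separate cultures from repeated preparations of the same RNA. Levels are given as CPM, the counts scaled to a common total after normalisation. Wild-type Dhx36 stood at 54.1 ± 3.79 CPM (SD, n = 3), against 10.5 ± 1.45 CPM in the DHX36 single knockout, and Brip1 had 1 to 3 counts per library in the FANCJ single knockout against 30 to 38 in wild type. The labels do not say which part of either gene was altered, so counts from 3′ ends are an incomplete check. All 7 embryonic stem cell markers had counts in every library, with summed levels of 4230 to 4310 CPM in wild type, 4650 to 4870 in the DHX36 single knockout, 3760 to 3990 in the FANCJ single knockout and 5650 to 5720 in the double knockout. Markers of primitive endoderm (7 of 7 detected in every library) summed to 75.8 to 93.4 CPM in wild type, 65.6 to 70.6 in the DHX36 single knockout, 159 to 170 in the FANCJ single knockout and 77.4 to 81.1 in the double knockout. Its genes differed in direction. Col4a1, which had the highest level of the 7, averaged 49.5, 27.1, 91.3 and 27.3 CPM in that order of genotypes. Sox17 averaged 2.59, 10.8, 13.2 and 9.76 CPM, Gata6 1.85, 4.08, 5.04 and 6.71, and Pdgfra 0.658, 1.6, 1.09 and 2.65. The Pdgfra libraries of both single knockouts overlapped those of wild type. Gata4 averaged 3.92, 3.08, 7.61 and 3.9 CPM, Dab2 23.2, 20.2, 41.2 and 25.7, and Sox7 2.96, 1.6, 3.83 and 2.69. Fibroblast markers, of which 4 of 7 had counts in every library and none was at 0 throughout, summed to 86.6 to 92.3, 72.5 to 82.4, 80.7 to 86.2 and 29.6 to 35 CPM in the same order. The mitochondrial share of counts lay between 10.0% and 10.6% in wild type and was at least 11% in each knockout library, with a highest value of 13.2% in the double knockout. The part of these differences in the results below was not tested.

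All 9 genes are protein coding in GENCODE M21, whose GRCm38 coordinates are used below. Thoc5 is on chromosome 11 from 4895320 to 4928867 on the plus strand, Alyref on the minus strand of the same chromosome from 120592121 to 120598365, and Thoc7 on the minus strand of chromosome 14 from 13949012 to 13961852. RefSeq promoter windows on GRCm38.p6, from 250 bases before to 50 after a start site, were at hand for 7 of the 9 genes, in 9 windows. The windows were searched on both strands for a G-quadruplex motif, 4 runs of at least 3 G with loops of 1 to 7 bases. Loops could be of any base, G included, so a long unbroken run could supply several of the 4 runs.

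The sequences below belong to the 2 genes that fell against wild type and to the gene whose windows hold the motif. Capitals mark runs of at least 3 G or 3 C, and each is written 5′ to 3′ on the gene's strand. The first is the stretch of the Thoc5 window at chr11:4895093-4895319 (plus), before the annotated transcript, and the next is the part of the Alyref window at chr11:120598366-120598420 (minus) that lies in no annotated exon. The 3 Thoc7 entries are the motif matches at chr14:13961472-13961489, chr14:13961414-13961440 and chr14:13962026-13962046 (minus), the last 2 of them C-rich runs that read as G on the other strand. The last entry holds only 2 unbroken C runs, and the longer of them supplies several of the motif's runs and the loops between them.
Thoc5: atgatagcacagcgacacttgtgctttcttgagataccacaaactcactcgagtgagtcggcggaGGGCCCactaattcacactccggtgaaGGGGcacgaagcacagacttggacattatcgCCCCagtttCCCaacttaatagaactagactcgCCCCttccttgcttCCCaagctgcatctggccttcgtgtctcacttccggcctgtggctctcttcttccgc
Alyref: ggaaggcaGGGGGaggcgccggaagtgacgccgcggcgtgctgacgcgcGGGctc
Thoc7 gene strand: GGGcgcGGGcaGGGcGGG
Thoc7 other strand, first: CCCgCCCtCCCgccgCCCgtctcgCCC
Thoc7 other strand, second: CCCgactCCCCCCCCCCCCCC
Thoc7 was the only one of the 7 genes with a match in any window, and both of its windows, among the 9 searched, held one. Of all 32851 RefSeq windows, 18.6% hold the motif on either strand (10.5% on the gene's strand and 9.35% on the other). That share is of windows and not of genes. The first 2 Thoc7 matches lie in exons of Atxn7, the gene on the opposite strand. Both also lie within the GENCODE M21 bounds of Thoc7, after its annotated start and in none of its exons. Only the last match lies before that start. The Thoc5 stretch is 53.7% GC with 2 G runs and 5 C runs, and the Alyref stretch is 78.2% GC with 2 G runs, with no match in either window. A match, or its absence, describes these letters only.

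Thoc5, a subunit of the THO complex that binds elongating transcripts, was lower in all 3 knockout genotypes. Its level was 53.4, 49.7 and 47.5 CPM in wild type, 34.1, 29.4 and 37.2 in the DHX36 single knockout, 31.1, 31.5 and 34.0 in the FANCJ single knockout and 32.9, 32.4 and 27.8 with both lost. Every knockout library was below every wild-type library, and the 3 knockout genotypes overlapped one another. Thoc5 fell by 0.57 on the log2 scale in the DHX36 single knockout (SE 0.11, 95% interval -0.80 to -0.34, edgeR quasi-likelihood test, adjusted p = 0.000687), which is 1.49-fold. In the FANCJ single knockout it fell by 0.64 (SE 0.11, 95% interval -0.88 to -0.41, adjusted p = 0.00397), and in the double knockout by 0.69 (SE 0.11, 95% interval -0.92 to -0.46, adjusted p = 4.36e-05). These 3 comparisons share the wild-type libraries and so are not independent of one another. The fall passed the threshold in each of them under every alternative setting and without any single library. The mitochondrial share of counts, 10.0% to 10.6% in wild type and 11% or more in all knockout libraries, separates the same libraries, and its part in the Thoc5 difference was not tested.

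The double knockout differed from the DHX36 single knockout by -0.12 on the log2 scale (SE 0.11, 95% interval -0.34 to 0.10, adjusted p = 0.482) and from the FANCJ single knockout by -0.05 (SE 0.11, 95% interval -0.28 to 0.18, adjusted p = 0.773). The interaction, how far FANCJ loss differs in effect between cells without and with DHX36, was 0.52 for Thoc5 (SE 0.16, 95% interval 0.20 to 0.85, adjusted p = 0.0403), and 8.79% of all genes tested passed that test. It was the sole interaction called among the 9 genes, and the call was not firm. With a replicate block the adjusted p was 0.0538, and at equal depth 0.232. Leaving out one library ended the call for 8 of the 12: wild-type replicates 1 (0.0948) and 2 (0.0637), DHX36 single knockout replicates 1 (0.0627) and 2 (0.0997), FANCJ single knockout replicates 1 (0.0936) and 2 (0.0769), and double knockout replicates 1 (0.101) and 2 (0.0932).

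None of the other 3 THO subunits in the set fell in a knockout genotype against wild type. Thoc2 (chromosome X, 41794991 to 41920674, minus strand), which encodes the scaffold of the complex, stood at 84.8, 72.8 and 75.4 CPM in wild type, 72.2, 78.0 and 77.5 in the DHX36 single knockout, 69.9, 76.2 and 79.8 in the FANCJ single knockout and 88.8, 92.0 and 85.7 with both lost. The double knockout libraries were above all others, by a small margin over the highest wild-type library. Thoc2 rose in the double knockout against the FANCJ single knockout, by 0.24 on the log2 scale (SE 0.09, adjusted p = 0.0341). That call was lost without an expression filter (0.0744), at equal depth (0.27) and without FANCJ single knockout replicate 1 (0.181) or 2 (0.0685) or double knockout replicate 1 (0.0722) or 2 (0.107). Against wild type the difference was 0.20 (SE 0.09, adjusted p = 0.096), which passed when only genes averaging at least 20 CPM were fitted (0.0368) and without wild-type replicate 1 (0.049).

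Thoc7, a small subunit that pairs with THOC5, had 34.3, 33.1 and 42.6 CPM in wild type, 35.2, 32.4 and 34.4 in the DHX36 single knockout, 44.7, 41.2 and 39.6 in the FANCJ single knockout and 33.4, 31.5 and 33.2 with both lost. Its libraries overlapped those of wild type in all 3 knockout genotypes. It fell in the double knockout against the FANCJ single knockout, by 0.36 on the log2 scale (SE 0.11, adjusted p = 0.0103), a call lost at equal depth (0.0841) and without FANCJ single knockout replicate 1 (0.0568). Gm11100, whose exons overlap Thoc7 on the other strand, had 2 to 23 counts per library. Thoc1 (chromosome 18, 9957906 to 9995489, plus strand), first described as a nuclear partner of the retinoblastoma protein, ranged from 37.0 to 59.6 CPM over the 12 libraries and passed no test. Its difference from wild type was 0.19 (SE 0.13) in the DHX36 single knockout, 0.25 (SE 0.13) in the FANCJ single knockout and 0.22 (SE 0.13) in the double knockout, with adjusted p-values of 0.315, 0.387 and 0.206. The exons of Thoc1 overlap those of Usp14 on the other strand by up to 2169 bases, and no source used here says whether counting used strand, so reads of the pair cannot be told apart. Usp14 was the more counted gene of the pair, at 272 ± 23.5 CPM in wild type, and passed no test either.

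**Figure D1:**
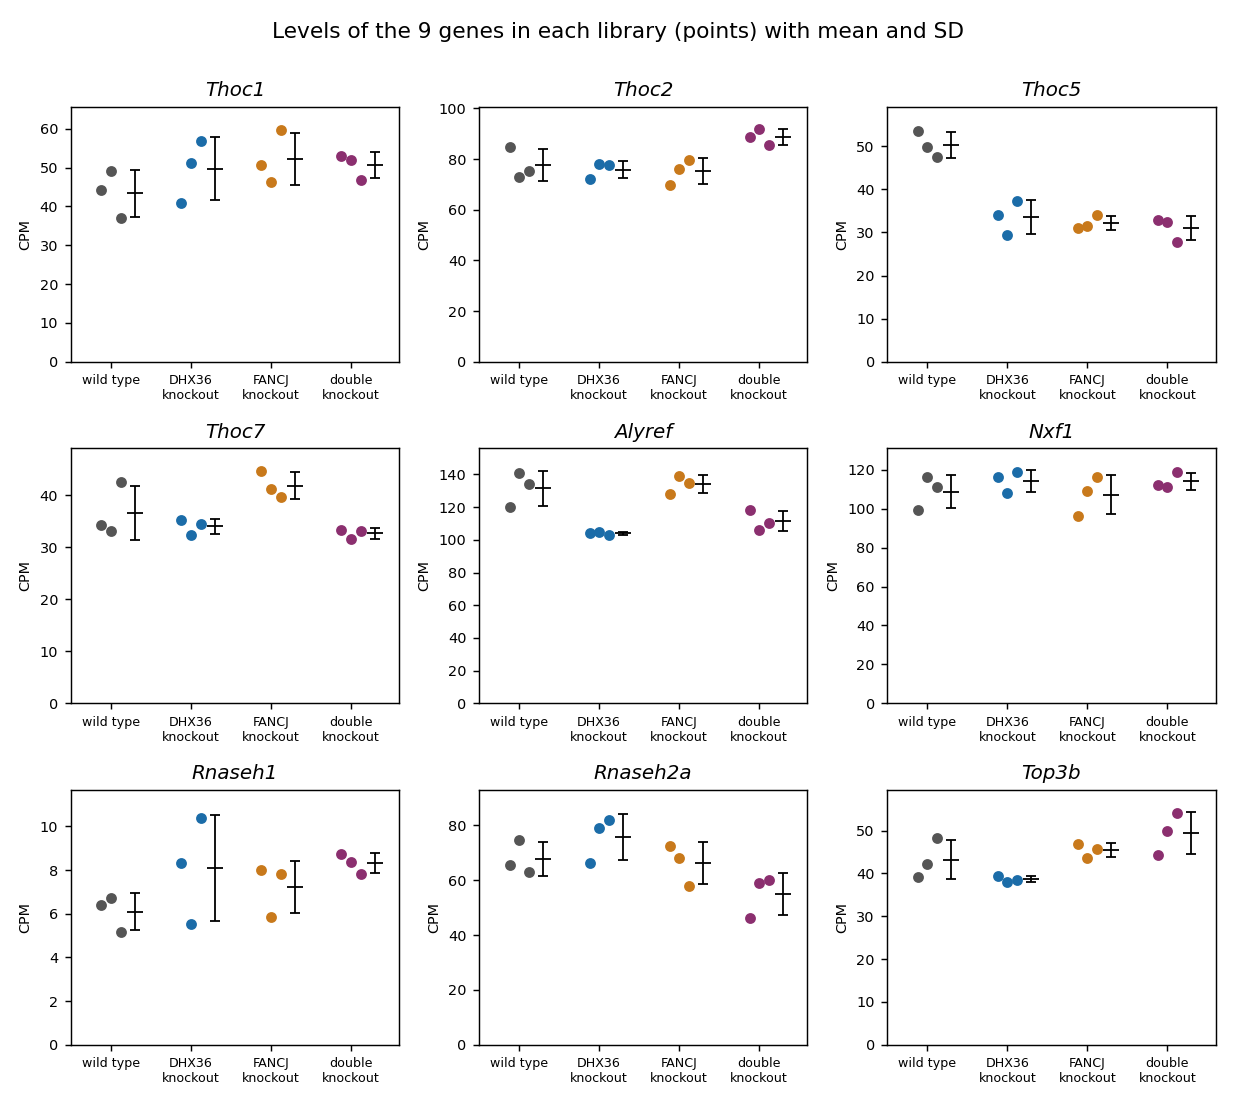
Level in CPM of each of the 9 genes (linear axes from 0) by genotype. Points are single libraries, and the bar beside them is the mean ± SD (n = 3). Thoc5 lies between 47.5 and 53.4 CPM in wild type and at 37.2 or below in every knockout library, while Alyref is at 118 or below where DHX36 is lost and the Nxf1 libraries overlap.

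The 4 THO genes can also be read against their own complex, which needs no scaling between libraries. Of the summed counts of 6 THO genes (Thoc1, Thoc2, Thoc3, Thoc5, Thoc6 and Thoc7), Thoc5 took 18.2% ± 0.651 (SD, n = 3) in wild-type cells and, among the knockouts, 13.2% ± 1.47 in the DHX36 single knockout, 12.3% ± 0.252 in the FANCJ single knockout and 11.3% ± 0.723 in the double knockout. The lowest wild-type share was 17.5% and the highest share in any knockout library was 14.1%, so the groups did not overlap. The share of Thoc2 was 28.1% ± 1.57 in wild type and 32.5% ± 0.7 in the double knockout, again without overlap, with 29.8% ± 0.624 where DHX36 alone was lost and 28.7% ± 1.6 where FANCJ alone was lost. Shares of one complex add up to the whole, so a fall in one raises the others. These are descriptions with no test.

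**Figure D2:**
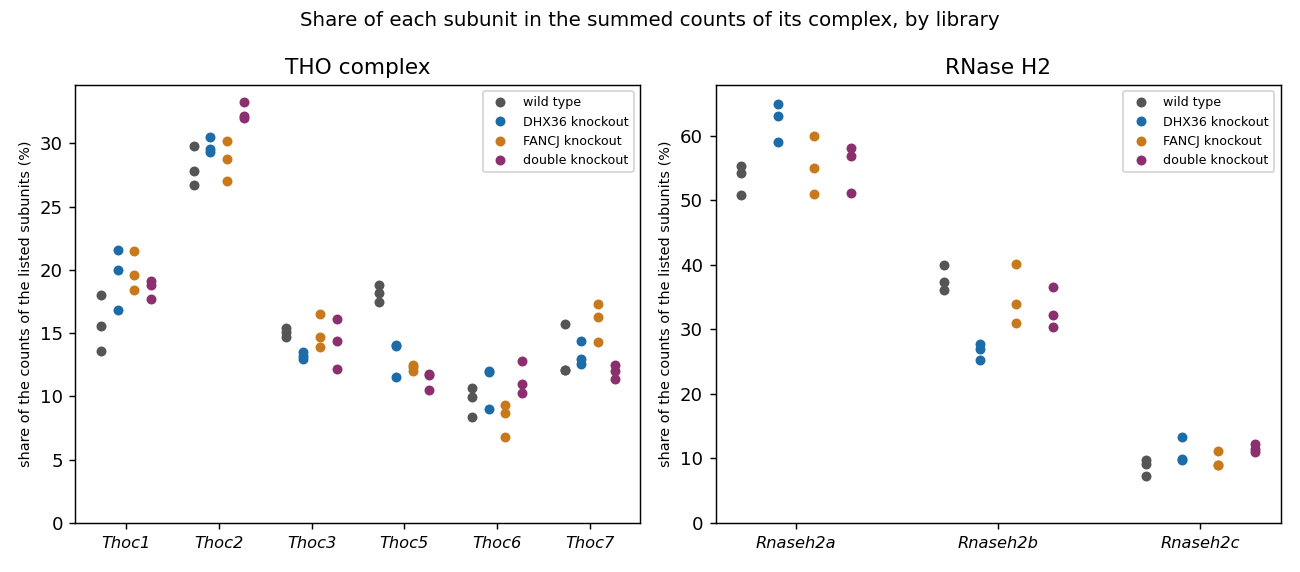
Share of each subunit, in percent, in the summed counts of 6 THO genes (left) and 3 RNase H2 genes (right). Points are single libraries, coloured by genotype. The Thoc5 shares of wild type, from 17.5% to 18.8%, lie above those of all knockout libraries, and the Rnaseh2b shares of the DHX36 single knockout, from 25.2% to 27.8%, lie below those of wild type.

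Alyref, the adaptor that joins the spliced transcript to the export receptor, was lower where DHX36 was lost, and no difference was called in the FANCJ single knockout. Its level was 120, 141 and 134 CPM in wild type, 104, 105 and 103 in the DHX36 single knockout, 128, 139 and 135 in the FANCJ single knockout and 118, 106 and 110 with both lost. All 6 libraries without DHX36 were below all 6 with it. Alyref fell by 0.34 on the log2 scale in the DHX36 single knockout (SE 0.08, 95% interval -0.52 to -0.17, adjusted p = 0.0048), and this held in every alternative and without any single library. In the double knockout it fell by 0.25 against wild type (SE 0.08, 95% interval -0.42 to -0.07, adjusted p = 0.0263) and by 0.27 against the FANCJ single knockout (SE 0.08, adjusted p = 0.0138). The first of these was lost without an expression filter (0.0949), at equal depth (0.139), with only the compared groups in the fit (0.0513) and without wild-type replicate 2 (0.13) or 3 (0.0559) or double knockout replicate 2 (0.107) or 3 (0.068). The second was lost without FANCJ single knockout replicate 2 (0.0601) or double knockout replicate 2 (0.068).

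The Alyref difference in the FANCJ single knockout was 0.02 (SE 0.08, 95% interval -0.15 to 0.20, adjusted p = 0.944), and the interaction was 0.08 (SE 0.12, adjusted p = 0.767). A near copy, Alyref2, is also annotated, so reads common to the pair could be split by the authors' counting. Alyref2 averaged 4.25 CPM in wild type, 4.62 in the DHX36 single knockout, 5.07 in the FANCJ single knockout and 3.8 in the double knockout. A shift of reads between the pair was not tested. The summed fibroblast markers were below wild type without overlap in all 3 knockout genotypes, by a small margin in the FANCJ single knockout (80.7 to 86.2 against 86.6 to 92.3 CPM). Most of the wild-type sum was Col1a1, at a mean of 70.7 CPM. It averaged 42.9 in the DHX36 single knockout, 66.4 in the FANCJ single knockout and 11.7 in the double knockout. Thy1 averaged 4.13, 15, 5.04 and 12.2 CPM in wild type and these 3 genotypes. In the same order Col1a2 averaged 8.49, 11.4, 6.86 and 5.8 CPM, and Col3a1 6.5, 8.82, 4.37 and 1.93. In the DHX36 single knockout Col1a1 was thus lower than in wild type, while Thy1, Col1a2 and Col3a1 had higher means. Lum, Dcn and Postn had at most 4 counts in a library. The part of these markers in the Alyref difference was not tested.

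Nxf1 (chromosome 19, 8757073 to 8770922, plus strand), the receptor that carries mRNA through the nuclear pore, passed no test. It had 99.4, 116 and 111 CPM in wild type, 116, 108 and 119 in the DHX36 single knockout, 96.4, 109 and 116 in the FANCJ single knockout and 112, 111 and 119 with both lost. The groups overlapped in every comparison. The difference from wild type was 0.07 (95% interval -0.12 to 0.26) in the DHX36 single knockout, -0.03 (95% interval -0.22 to 0.16) in the FANCJ single knockout and 0.07 (95% interval -0.12 to 0.25) in the double knockout, with adjusted p-values of 0.614, 0.926 and 0.607.

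The RNase H genes gave one call between knockouts. Rnaseh2a (chromosome 8, 84956610 to 84969767, minus strand) encodes the catalytic subunit of RNase H2, which cuts RNA in hybrids and removes single ribonucleotides from DNA. Its level was 65.5, 74.6 and 63.0 CPM in wild type, 66.1, 78.9 and 82.0 in the DHX36 single knockout, 72.6, 68.2 and 57.8 in the FANCJ single knockout and 46.3, 58.8 and 60.0 with both lost. The double knockout libraries lay below all wild-type and DHX36 single knockout libraries and overlapped the FANCJ single knockout.

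Rnaseh2a fell in the double knockout against the DHX36 single knockout, by 0.46 on the log2 scale (SE 0.11, 95% interval -0.70 to -0.23, adjusted p = 0.00587). The call was lost at equal depth (0.0544) and without double knockout replicate 1 (0.051). Against wild type the difference was -0.31 (SE 0.12, adjusted p = 0.0515), which passed with the other normalisation (0.0491), without an expression filter (0.0436), with a replicate block (0.0499), with only the compared groups (0.0481) and without wild-type replicate 3 (0.042) or double knockout replicate 3 (0.0398). Against the FANCJ single knockout it was -0.28 (SE 0.12, adjusted p = 0.0681), which passed without FANCJ single knockout replicate 3 (0.0301) or double knockout replicate 3 (0.047). The exons of Rnaseh2a overlap those of Prdx2, a peroxiredoxin gene on the other strand, by up to 154 bases. Prdx2 was itself lower in the double knockout than in wild type, at 86.4 ± 7.94 against 123 ± 13.6 CPM (log2 difference -0.51, SE 0.10, edgeR adjusted p = 0.000401). Between the double and DHX36 single knockouts, where Rnaseh2a was called, Prdx2 differed by -0.27 (SE 0.10, edgeR adjusted p = 0.0561). Between the double and FANCJ single knockouts, where Rnaseh2a was not called, Prdx2 differed by -0.55 (SE 0.10, edgeR adjusted p = 0.000122). The DHX36 single knockout differed from wild type by -0.24 for Prdx2 and by 0.16 for Rnaseh2a, neither called. Reads shared by the pair could move both, which was not tested. Gm49661, whose exons overlap Rnaseh2a on the same strand, had 0 counts in every library.

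Rnaseh1 (chromosome 12, 28649602 to 28659589, plus strand), a single-chain RNase H that removes longer hybrids, was the least counted of the 9 genes, with 22 to 129 counts per library. Its level was 6.42, 6.72 and 5.15 CPM in wild type, 8.34, 5.53 and 10.4 in the DHX36 single knockout, 7.99, 5.85 and 7.84 in the FANCJ single knockout and 8.73, 8.37 and 7.84 with both lost. The double knockout libraries were all above those of wild type, but the difference of 0.44 on the log2 scale did not pass (SE 0.22, 95% interval -0.02 to 0.90, adjusted p = 0.132). In the DHX36 single knockout it was 0.43 (SE 0.23, 95% interval -0.04 to 0.90, adjusted p = 0.179), which passed without DHX36 single knockout replicate 2 (0.0473). In the FANCJ single knockout the difference was 0.22 (SE 0.24, adjusted p = 0.723). The upper bounds of the first 2 intervals are larger than the fall of Thoc5.

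Top3b (chromosome 16, 16870736 to 16892990, plus strand) encodes topoisomerase III beta, a topoisomerase that can act on RNA as well as DNA and works with TDRD3. It had 39.2, 42.3 and 48.2 CPM in wild type, 39.5, 38.0 and 38.5 in the DHX36 single knockout, 46.9, 43.6 and 45.8 in the FANCJ single knockout and 44.4, 49.9 and 54.0 with both lost. No knockout genotype stood apart from wild type, and the adjusted p-values were 0.311, 0.813 and 0.163. Top3b rose in the double knockout against the DHX36 single knockout, by 0.35 on the log2 scale (SE 0.10, 95% interval 0.14 to 0.56, adjusted p = 0.0159). The call was lost at equal depth (0.175) and without DHX36 single knockout replicate 3 (0.0508) or double knockout replicate 2 (0.0511) or 3 (0.0728). Vpreb1, which overlaps its exons on the other strand, had 1 to 9 counts per library.

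Counted over the 9 genes, 2 fell and none rose in the DHX36 single knockout, where 24.4% of all genes tested changed, 12.8% upward and 11.6% downward. Both had libraries that did not overlap wild type, as did 37.6% of all genes. In the FANCJ single knockout 1 of the 9 fell (Thoc5), against 2.07% of all genes changed, 1.45% upward and 0.619% downward. Thoc5 was also the single gene without overlap there, against 18.7% of all genes. In the double knockout 2 fell, against 33.9% of all genes changed, 16.6% upward and 17.3% downward. Without overlap were 5 of the 9 (Thoc5, Alyref and Rnaseh2a below wild type, Thoc2 and Rnaseh1 above), against 45.2% of all genes.

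In both genotypes that lack DHX36 the 9 genes' share of calls, 22.2%, was therefore near or under the background. Of the 9, 2 changed between the double and the DHX36 single knockout, where 19.7% of all genes changed, and 4 did not overlap, against 36.9%. Between the double and the FANCJ single knockout 3 changed, where 36.8% of all genes did, and 3 did not overlap, against 48.7%. DESeq2 gave the same numbers of rises and falls among the 9 genes in all 6 comparisons. The median log2 difference of the 9 was -0.03 in the DHX36 single knockout, 0.02 in the FANCJ single knockout and 0.07 in the double knockout, and the median over all genes tested was 0.0045, -0.0026 and 0.0063.

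**Figure D3:**
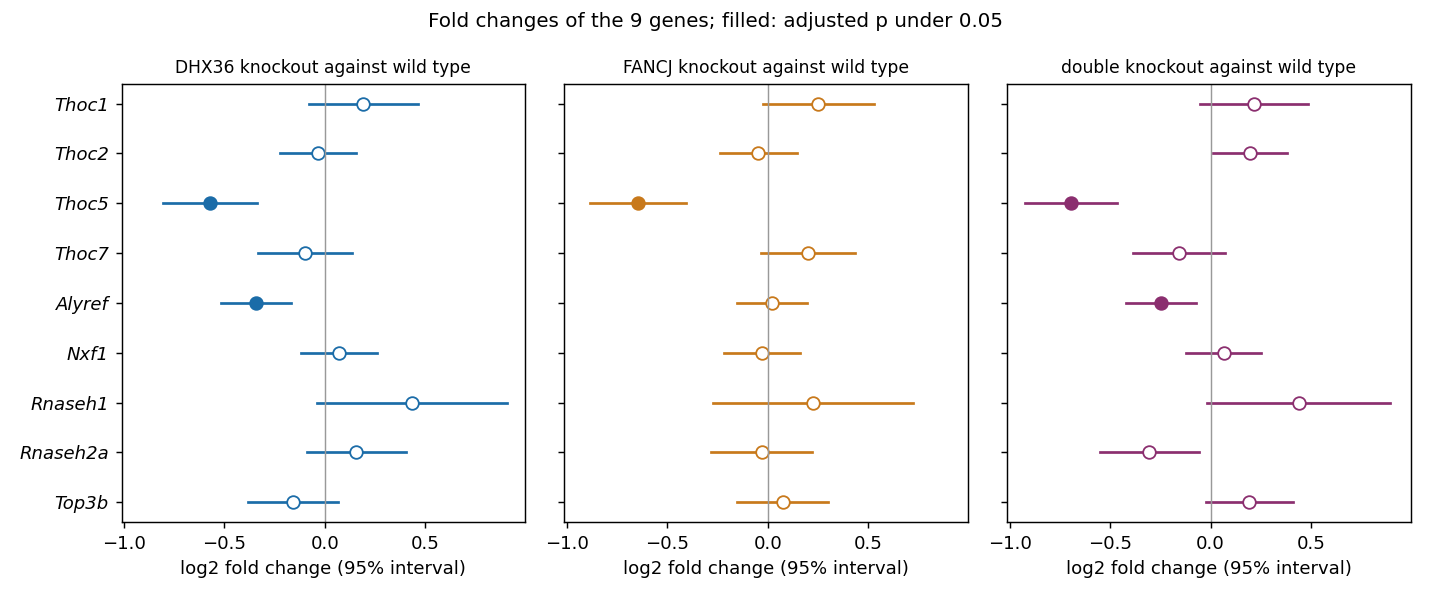
Log2 fold change of the 9 genes in each knockout genotype against wild type, with 95% intervals from the edgeR fit. Filled points have an adjusted p under 0.05. Thoc5 is filled in all 3 panels, from -0.57 to -0.69, and Alyref in those that lack DHX36.

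The other genes of the same pathways were taken from lists of 42 genes, of which 41 were tested (Nxf2 had too few counts). In the DHX36 single knockout 4 rose and 8 fell, and in the double knockout 5 rose and 8 fell, shares of 29.3% and 31.7% beside 24.4% and 33.9% of all genes tested. None was called in the FANCJ single knockout with edgeR or with DESeq2, though DESeq2 gave 1 of the 41 no adjusted p. With edgeR, 7 of 41 had an unadjusted p under 0.05 there (2 higher and 5 lower). Of all 12765 genes tested, 2.07% were called there and 1910 had such a p. Median log2 differences of the 41 were -0.06, -0.07 and 0.0032 in the DHX36, double and FANCJ single knockouts.

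Among 10 other THO and export complex subunits, 2 fell and none rose in the DHX36 single knockout, and 2 fell and none rose in the double knockout, 20% in each beside 24.4% and 33.9% of all genes. Sarnp, an RNA-binding partner of the export helicase, had 321, 369 and 331 CPM in wild type, 254, 273 and 269 in the DHX36 single knockout, 357, 360 and 359 in the FANCJ single knockout and 253, 268 and 253 with both lost. All libraries without DHX36 were below all with it, as for Alyref. It fell by 0.36 in the DHX36 single knockout (SE 0.08, adjusted p = 0.00154) and by 0.40 in the double knockout (SE 0.08, adjusted p = 0.000355). Ddx39, a helicase close in sequence to the export helicase Ddx39b, fell by 0.47 in the double knockout (SE 0.11, adjusted p = 0.00159), and reads common to the pair make its value uncertain. Exons of Sarnp and Ddx39 overlap those of Dnajc14 and Adgre5.

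Among 8 tested receptor partners and cap-binding proteins, 3 fell in the DHX36 single knockout, and 2 rose and 2 fell in the double knockout, 37.5% and 50% beside 24.4% and 33.9% of all genes. Nxt2, a small cofactor of the export receptors, stood at 16.6, 14.5 and 21.3 CPM in wild type, 11.8, 9.16 and 9.71 in the DHX36 single knockout, 13.3, 13.0 and 11.6 in the FANCJ single knockout and 6.56, 6.78 and 7.66 with both lost. It fell by 0.75 in the DHX36 single knockout (SE 0.17, adjusted p = 0.0019) and by 1.31 in the double knockout (SE 0.17, adjusted p = 2.56e-06). Nxf7, a relative of Nxf1, had 1 to 3 counts per library in wild type and 25 to 34 in the double knockout, where it rose by 2.45 (95% interval 1.39 to 3.52, adjusted p = 0.000792). Such counts are too low to give its size closely.

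Among 10 TREX-2 and pore remodelling genes, 2 rose and 1 fell in each of the genotypes that lack DHX36, 30% in both beside 24.4% and 33.9% of all genes. Ddx19b, a helicase that strips proteins from mRNA at the pore, had 39.2, 35.7 and 25.5 CPM in wild type, 92.9, 114 and 87.0 in the DHX36 single knockout, 31.2, 27.7 and 26.0 in the FANCJ single knockout and 96.4, 79.4 and 82.0 with both lost. Its rise was 1.54 in the DHX36 single knockout (SE 0.14, adjusted p = 4.59e-08) and 1.36 in the double knockout (SE 0.14, adjusted p = 1e-07), and no other of the 41 tested genes rose as much in the DHX36 single knockout. Its near copy Ddx19a makes the split of reads between them uncertain. Ddx19a averaged 86.2 CPM in wild type, 85.5 in the DHX36 single knockout, 79.2 in the FANCJ single knockout and 70.8 in the double knockout. A shift of reads between the pair was not tested. Sem1, a small acidic protein of TREX-2 and the proteasome, had 124, 120 and 110 CPM in wild type, 147, 148 and 163 in the DHX36 single knockout, 129, 123 and 136 in the FANCJ single knockout and 127, 130 and 117 with both lost. It rose by 0.37 in the DHX36 single knockout (SE 0.09, adjusted p = 0.00277), whose libraries were above all others. Cetn3, a centrin, fell by 0.47 in the DHX36 single knockout (SE 0.10, adjusted p = 0.00179), and an antisense gene overlaps its exons.

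Mcm3ap encodes GANP, the scaffold of TREX-2. Its level was 20.6, 26.2 and 23.9 CPM in wild type, 22.1, 21.6 and 26.3 in the DHX36 single knockout, 22.4, 23.7 and 26.8 in the FANCJ single knockout and 34.4, 40.3 and 39.0 with both lost. The double knockout stood above all other libraries, and the other 3 genotypes overlapped. Against wild type Mcm3ap rose by 0.68 there (SE 0.12, adjusted p = 0.000227), and its exons overlap those of Ybey on the other strand by up to 188 bases.

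**Figure D4:**
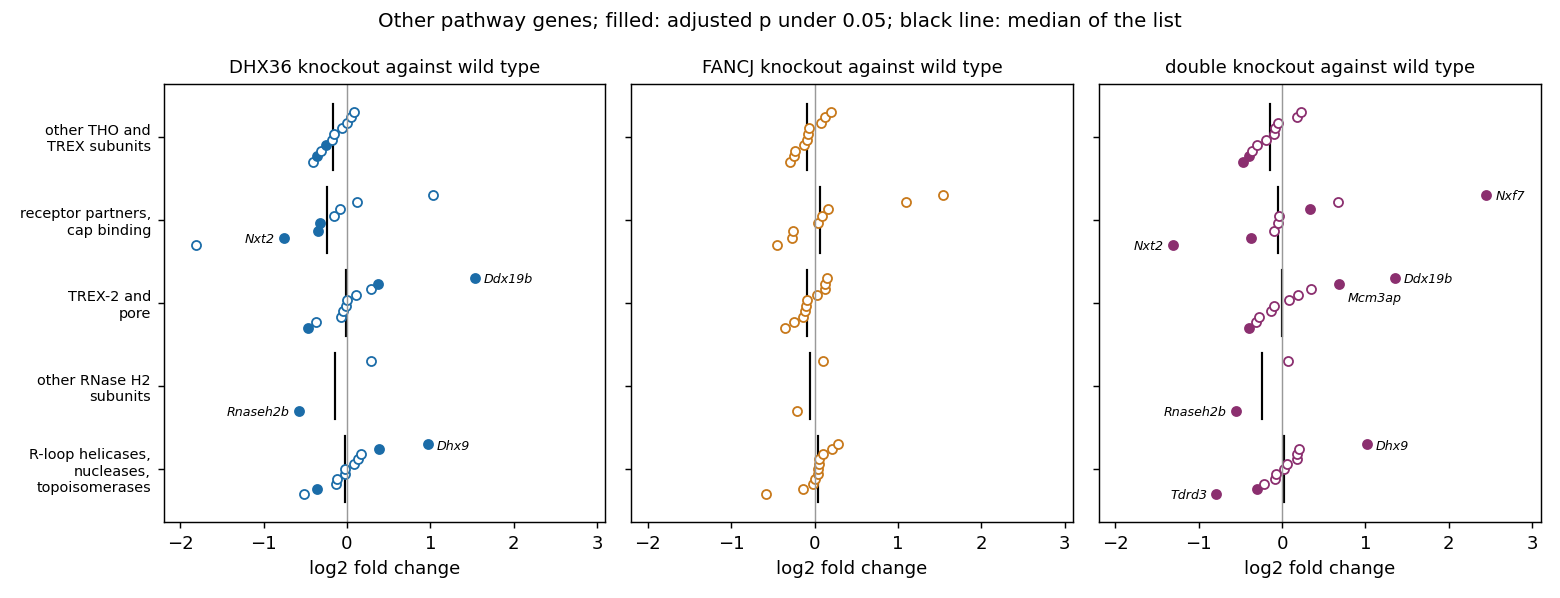
Log2 fold changes of the 41 other pathway genes against wild type, 1 row per list and 1 panel per knockout genotype. Each point is a gene, filled where its adjusted p is under 0.05, and the black line is the list's median. No point is filled in the FANCJ panel, and Ddx19b lies at 1.54 and 1.36 in the panels that lack DHX36.

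Of the 3 RNase H2 subunit genes, Rnaseh2b alone passed the test in the DHX36 single knockout. There the difference was 0.16 for Rnaseh2a (adjusted p = 0.368) and 0.28 for Rnaseh2c (adjusted p = 0.223), whose libraries were all above wild type. Rnaseh2b, which encodes an accessory subunit, had 51.6, 50.4 and 41.9 CPM in wild type, 31.1, 33.6 and 31.8 in the DHX36 single knockout, 37.5, 42.0 and 45.4 in the FANCJ single knockout and 33.2, 33.3 and 31.4 with both lost. It fell by 0.58 in the DHX36 single knockout (SE 0.11, adjusted p = 0.000461) and by 0.56 in the double knockout (SE 0.11, adjusted p = 0.000338), and its exons overlap those of Dleu7 by up to 66 bases. Its share of the counts of the 3 subunit genes was 37.8% ± 1.99 (SD, n = 3) in wild-type cells and, among the knockouts, 26.6% ± 1.32 in the DHX36 single knockout, 35% ± 4.65 in the FANCJ single knockout and 33.1% ± 3.19 in the double knockout. The share of Rnaseh2a was 53.5% ± 2.29, 62.4% ± 3.07, 55.3% ± 4.51 and 55.3% ± 3.72 in that order. The DHX36 single knockout libraries did not overlap those of wild type in either share.

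Among 11 other helicases, nucleases and topoisomerases that act on R-loops, 2 rose and 1 fell in the DHX36 single knockout, and 1 rose and 2 fell in the double knockout, 27.3% in both beside 24.4% and 33.9% of all genes. Dhx9, a helicase that unwinds RNA and hybrids, had 268, 262 and 219 CPM in wild type, 395, 521 and 552 in the DHX36 single knockout, 247, 263 and 259 in the FANCJ single knockout and 563, 577 and 380 with both lost. It rose by 0.97 in the DHX36 single knockout (SE 0.13, adjusted p = 1.55e-05) and by 1.02 in the double knockout (SE 0.13, adjusted p = 4.15e-06). Aqr, a helicase of the splicing machinery, rose by 0.38 in the DHX36 single knockout (SE 0.12, adjusted p = 0.0218), which was lost at equal depth (0.063) and without wild-type replicate 2 (0.0607) or 3 (0.1) or DHX36 single knockout replicate 1 (0.14). Tdrd3, the partner of topoisomerase III beta, fell by 0.79 in the double knockout (SE 0.23, adjusted p = 0.0102), lost at equal depth (0.0847) and without wild-type replicate 1 (0.0738). Top3b had a difference of 0.19 there (SE 0.10, adjusted p = 0.163). Tdrd3 differed from wild type by -0.52 in the DHX36 single knockout (edgeR adjusted p = 0.112) and by -0.58 in the FANCJ single knockout (0.252), neither called. Every knockout library was below every wild-type library for Tdrd3, which had only 26 to 62 counts per library.

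**Figure D5:**
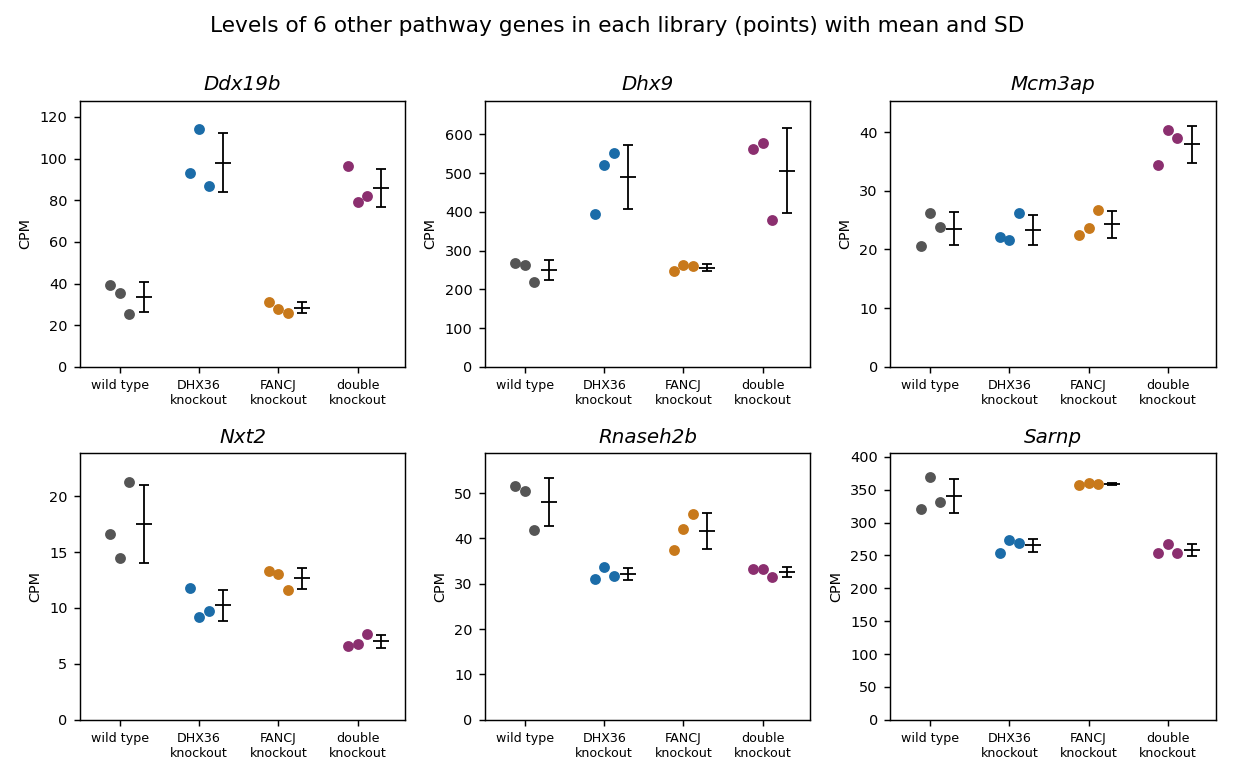
Level in CPM of 6 other pathway genes by genotype (linear axes from 0). Points are single libraries, and the bar beside them is the mean ± SD (n = 3). Ddx19b and Dhx9 are high and Rnaseh2b and Sarnp low in all libraries that lack DHX36, while in the double knockout Mcm3ap is at 34.4 CPM or above and Nxt2 at 7.66 CPM or below.

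The genes whose levels followed Thoc5 and Alyref most closely were sought by Pearson's r of log2 CPM over the 12 libraries, among 5624 genes averaging at least 20 CPM. The libraries share genotypes and depth, so r describes these libraries and carries no p. For Thoc5 they were Txndc17 (r = 0.924), Polr3g (0.922) and Pold2 (0.912). Pold2, a subunit of DNA polymerase delta, averaged 85.1 CPM in wild type, 53.5 in the DHX36 single knockout, 55.2 in the FANCJ single knockout and 44.5 in the double knockout. For Alyref they were Pecr (0.953), Morf4l2 (0.951) and Atp1b1 (0.951). Morf4l2, a chromatin protein, averaged 738 and 762 CPM in wild type and the FANCJ single knockout and 471 and 481 CPM in the DHX36 and double knockouts.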

How the data were processed

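The authors deposited raw counts, whole numbers for each gene in each library. Per the labels' protocols, total RNA of untreated cells was made into libraries by a method like CEL-Seq2, which tags the 3′ ends of transcripts. BWA, GRCm38 and hg38 are listed, with no roles given, per the submitters' processing notes. Not given in the sources used here are whether counts are reads or molecules and how strand and reads with several alignments were handled. Of the 32285 gene identifiers, 32158 were found in GENCODE M21. The 92 spike-in rows, with 4 to 30 counts per library, were left out.

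Counts of all 12 libraries were fitted with edgeR 4.0.16 in R 4.3.3 (quasi-likelihood F test, two-sided, normalisation by trimmed means, default expression filter by genotype), with genotype as the only term and adjustment after Benjamini and Hochberg over 12765 genes at a threshold of 0.05. Standard errors were computed from each fold change and its F value. DESeq2 1.42.0 was an alternative, with other normalisation, other filters, a replicate block, libraries thinned to equal depth, fits of only the compared groups, and each library left out. Fits were tested on simulated data. Total counts set the precision, which is lowest for Rnaseh1.

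The 9 genes and the lists were chosen with earlier results of these data known. Named besides them are the targeted genes, up to 4 rises and 4 falls by size among the called pathway genes in each comparison with wild type, and the 3 genes most like each member called there. Genes that overlap a member were added after their positions were seen. One listed gene is not reported here and was left out of the lists. The labels state no batch.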

Additional observations from a re-analysis of the deposited data

Results flagged for a closer look

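The interaction of DHX36 and FANCJ loss was 0.5244 on the log2 scale for Thoc5 (edgeR, adjusted p = 0.0403), lost with a replicate block (0.0538), at equal depth (0.232) and without any of 8 of the 12 libraries (0.0627 to 0.101). Among the 41 other pathway genes 4 were called for the interaction, 2 positive and 2 negative, which is 9.76% beside 8.79% of all genes tested. Srrt (0.516, adjusted p = 0.0202) and Ddx21 (-0.4843, adjusted p = 0.00557) are named after their values were seen and were not run under the alternatives. The interaction of Mcm3ap was 0.6583 (adjusted p = 0.0224), lost at equal depth (0.15) and without wild-type replicate 2 (0.0793), DHX36 single knockout replicate 1 (0.0518) or 2 (0.0528), FANCJ single knockout replicate 1 (0.0686) or double knockout replicate 2 (0.0587). That of Sem1 was -0.4184 (adjusted p = 0.0297), lost at equal depth (0.191) and without wild-type replicate 3 (0.0715), DHX36 single knockout replicate 3 (0.0843), FANCJ single knockout replicate 1 (0.0613) or 3 (0.073) or double knockout replicate 3 (0.0722). Spike-in transcripts, which no comparison used, had up to 30 counts in a library.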

How the results depend on the processing

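The number of the 9 genes called kept within 1.5 times its value in both single knockouts against wild type under every alternative. At equal depth, which removes counts from the deeper libraries, it went from 2 to 1 in the double knockout against wild type, from 2 to 0 against the DHX36 single knockout, from 3 to 1 against the FANCJ single knockout and from 1 to 0 for the interaction. With one library left out the numbers ranged from 1 to 3, 1 to 2, 1 to 4 and 0 to 1 in the same order. The number of all genes called moved by over 1.5 times among genes averaging at least 20 CPM, as fewer were tested, from 3113 to 1766 in the DHX36 single knockout, 4331 to 2292 in the double knockout, 2512 to 1379 and 4697 to 2436 between the double and the DHX36 or FANCJ single knockouts, and 1122 to 741 for the interaction. At equal depth it was 2000 in the DHX36 single knockout, 1381 between the double and that knockout and 594 for the interaction. In the FANCJ single knockout the 264 genes became 418 without a filter, 101 at equal depth, 159 with only the compared groups, and 130, 131, 110 and 143 without wild-type replicate 1 or 2 or FANCJ single knockout replicate 1 or 3. A scaling moved the median of all genes by at most 0.0083. The interaction uses all genotypes and was not fitted on fewer.

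Replicate numbers did not pair the libraries: the correlation of same-numbered libraries lay between -0.072 and 0.046 over 18 pairs. With the replicate block the interaction count was 0 (Thoc5, adjusted p = 0.0538), and Rnaseh2a passed in the double knockout against wild type (0.0499).

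Log2 differences that changed sign were all of genes not called. They were 0.0033 for Thoc2 in the DHX36 single knockout with a mean of at least 20 CPM. At equal depth they were 0.0066 for Thoc7 in that genotype, 0.0152 for Rnaseh2a in the FANCJ single knockout, 0.1018 for Nxf1 between the double and DHX36 single knockouts, 0.0514 for Thoc1 between the double and FANCJ single knockouts and 0.1323 for the Rnaseh1 interaction. Nxf1 in the same comparison gave 0.0049 without an expression filter and 1e-04 with only the compared groups. The cause was not tested.

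With one library left out, signs changed for Thoc2 (-0.0855 to 0.0275) and Thoc7 (-0.1797 to 0.0075) in the DHX36 single knockout and for Thoc2 (-0.0874 to 0.027), Alyref (-0.0329 to 0.0809), Nxf1 (-0.0848 to 0.0514) and Rnaseh2a (-0.0917 to 0.0566) in the FANCJ single knockout. They did so for Thoc1 (-0.098 to 0.1427), Nxf1 (-0.0444 to 0.0255) and Rnaseh1 (-0.1719 to 0.236) between the double and DHX36 single knockouts, and for Thoc1 (-0.1153 to 0.0619) and Thoc5 (-0.0916 to 0.0196) between the double and FANCJ single knockouts. The interactions of Nxf1 (-0.0492 to 0.087) and Rnaseh1 (-0.3958 to 0.0116) changed sign as well.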
